A study of Mus musculus with 15 samples.

Results

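Mouse livers that had been injured with carbon tetrachloride (CCl4) and then exposed to ethanol were set against livers given CCl4 and then chow. The comparison used 5 of the 15 libraries of the series, chosen by their labels, and covered all 24499 genes of the deposited count tables. The ethanol group held 3 libraries labelled CCl4+CCl4/EtOH 20D, numbered 18, 19 and 20, and the chow group held 2 labelled CCl4+CCl4/chow 20D, numbered 16 and 17. All came from adult male C57BL/6 mice. Both groups had CCl4 by intraperitoneal injection, at 0.2 ml/kg and 2 times a week for 6 weeks, and the labels of both give CCl4 again in a second phase. The protocol puts that later dose at 0.5 of the first for mice on ethanol and does not state it for mice on chow. In the second phase the ethanol group received ethanol by gastric tube over 3 weeks, rising to 25 g/kg a day, and its labels add HFD, the usual abbreviation of high-fat diet. The chow group's labels give chow in their place, so ethanol, the tube feeding and the diet cannot be told apart. Livers were taken at day 20. The labels do not tie each library to a mouse of its own. The p-values cover only the spread between libraries of a group, pooled over all 15 libraries in 8 groups. For a second ethanol comparison in the same fit, 3 libraries labelled OO+OO/EtOH 20D, numbered 13, 14 and 15, were set against the only library labelled OO+OO/chow 20D, numbered 12. The labels do not spell OO out, and these arms carry no CCl4. The OO ethanol arm had ethanol over 3 weeks, rising to 25 g/kg a day, and HFD as well. There too, ethanol, its feeding and the diet cannot be told apart. The remaining libraries are labelled OO 0D, CCl4 0D (the same first CCl4 course), OO+chow 23D and OO+EtOH 23D. They enter the shared spread and some descriptions below.

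Hepatocytes turn CCl4 into a toxic radical with cytochrome P450 enzymes, mainly CYP2E1, and repeated injury leaves collagen scars. They oxidise ethanol with alcohol dehydrogenase and with CYP2E1, and the nuclear receptors CAR and PXR raise Cyp2b, Cyp2c and Cyp3a enzymes when drugs or other foreign chemicals reach the liver. In male mice, pulses of growth hormone act through the transcription factor STAT5B to keep male-biased liver genes high and female-biased ones low.

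Counts assigned to genes were 21880629, 16246015 and 11189327 in ethanol libraries 18, 19 and 20, against 12682848 and 13430034 in chow libraries 16 and 17. The 5 libraries were sequenced in 5 different lanes, so lane and library cannot be told apart. Levels are given as CPM, a gene's counts relative to the library total, which compares a gene between libraries and not genes with each other. Single genes are in TMM-scaled CPM, while marker checks and sums over a list are in unscaled CPM and take in all its genes in the tables. Hepatocyte identity was clear in every library, with Alb at 43200 to 60200 CPM in ethanol livers and 54300 to 67800 CPM in chow livers, unscaled. Y-linked Ddx3y ran from 105 to 139 CPM in ethanol livers and from 84.9 to 130 CPM in chow livers, as the male label asks. Some libraries stood apart. A list of 14 skeletal and cardiac muscle genes summed to 784 CPM in ethanol library 20 and to 2.19 and 2.71 CPM in ethanol libraries 18 and 19, against 63.9 CPM in chow library 16 and 3.28 CPM in chow library 17. Immediate early genes summed to 200 to 269 CPM in ethanol livers, against 651 CPM in chow library 16 and 217 CPM in chow library 17. Among the 5 libraries, the fat cell marker Adipoq had counts in chow library 17 alone (0.894 CPM, unscaled). Because of the muscle transcripts, counts of called genes and list members are also given without libraries 20 and 16 together, a choice made after the data were seen.

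Ethanol went with a change in 187 of the 14778 genes tested (1.27%), of which 74 were higher (0.501%) and 113 lower (0.765%) than with chow. A gene is called where the quasi-likelihood test of edgeR gave an adjusted p under 0.05 (Benjamini-Hochberg over all genes tested), and adjusted p-values below are of that test unless a tool is named. The change was at least 2-fold for 52 of the higher and 90 of the lower genes. The median log2 change of all genes tested was 0.01, and 51.1% were positive. By edgeR 1748 of the 14778 genes had an unadjusted p under 0.05. Counts of list members at that p, given below, are to be read beside this share. For all 187 called genes, every ethanol library lay on the same side of both chow libraries. Among all genes tested, 13.1% were separated in this way upwards and 13.5% downwards. The count fell to 72 without ethanol library 20, 49 without chow library 16 and 54 without chow library 17, and to 24 without libraries 20 and 16 together. The count of higher genes was 48 without library 18, 26 without library 20, 10 without library 16 and 14 without library 17. The count of lower genes was 46 without library 20, 39 without library 16 and 40 without library 17. Leaving out a chow library leaves 1 chow library, whose spread is then taken from the other groups.

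**Figure D1:**
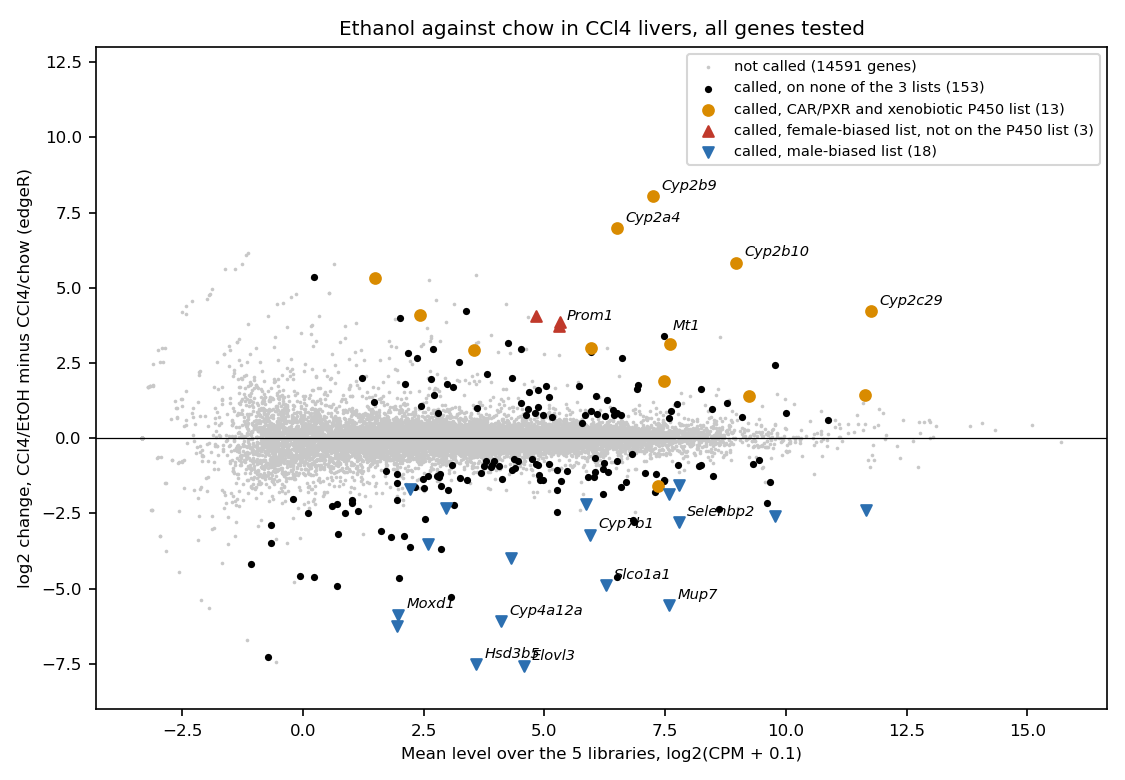
Each point is 1 of 14778 genes: the x axis is its mean level over the 5 libraries as log2 of CPM plus 0.1, and the y axis is the log2 change, ethanol minus chow, from edgeR. Coloured points are called genes on 3 lists and black points are other called genes; enzymes of the xenobiotic P450 list lie at the top, up to 8.04 for Cyp2b9, and male-biased genes at the bottom, down to -7.57 for Elovl3.

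Drug-metabolising P450 genes were among the largest increases. Of 29 tested genes on the list of CAR and PXR targets and xenobiotic P450 enzymes, 12 rose and 1 fell, the median log2 change was 1.41, and 23 were positive. Cyp2b9, a steroid and drug hydroxylase found mainly in female mouse liver, had 234, 257 and 265 CPM in ethanol livers, against 1.83 and 0.133 CPM in chow livers. All ethanol libraries were high and close together. The log2 change was 8.04 ± 0.59 (SE; 95% interval 6.74 to 9.34; adjusted p = 0.000102). Cyp2b10, the standard CAR target, had 799, 569 and 1102 CPM in ethanol livers, against 18.6 and 10.3 CPM in chow livers. The groups were far apart (log2 change 5.83 ± 0.43, adjusted p = 0.000102). Cyp2c29, an abundant drug and arachidonic acid oxygenase, had 5627, 6508 and 4536 CPM in ethanol livers, against 319.5 and 279 CPM in chow livers. Its lowest ethanol library was far above its higher chow library, and the fold was 18.6 (adjusted p = 1.11e-05). Cyp2c55, another PXR and CAR target, had 134, 85.2 and 70.1 CPM in ethanol livers, against 12.5 and 11.7 CPM in chow livers. The ethanol libraries were all above both chow libraries (log2 change 3.00 ± 0.29, adjusted p = 0.000434). The calls of Cyp2b9, Cyp2b10, Cyp2c29 and Cyp2c55 held without each of the 5 libraries in turn.

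The other members that rose were less even between libraries. Cyp2a4, a female-biased steroid 15-alpha-hydroxylase, had 198, 45.2 and 208 CPM in ethanol livers, against 1.39 and 0.996 CPM in chow livers. Ethanol library 19 was the low one but did not overlap with chow (log2 change 6.97 ± 0.98, adjusted p = 0.00607). The adjusted p of Cyp2a4 was 0.0993 without library 16 and 0.092 without library 17. Cyp2c37, a Cyp2c enzyme of hepatocytes, had 216, 551 and 133 CPM in ethanol livers, against 35.04 and 33.99 CPM in chow livers. Here library 19 was the highest (log2 change 3.12 ± 0.50, adjusted p = 0.0139), and the adjusted p was 0.15 without library 16 and 0.13 without library 17. Cyp3a11, the main PXR target, had 4523, 5552 and 2652 CPM in ethanol livers, against 1725 and 1439 CPM in chow livers. The rise was 2.68-fold (adjusted p = 0.0415), and the call ended without libraries 18, 19, 16 and 17, at adjusted p of 0.0788 to 0.216. Cyp2b13, Cyp2c50, Cyp2c54, Cyp2a22 and Cyp3a44 also rose. The member that fell was Cyp1a2, a pericentral enzyme switched on by the aryl hydrocarbon receptor, with 118, 91.5 and 61.3 CPM in ethanol livers, against 339 and 205 CPM in chow livers (adjusted p = 0.0343). Its call ended without libraries 19, 20, 16 and 17, at adjusted p of 0.0642 to 0.332. The receptors themselves did not pass the test. Nr1i3, which encodes CAR, changed by 0.58 (95% interval 0.02 to 1.13, adjusted p = 0.397) and Nr1i2, which encodes PXR, by 0.07 (-0.27 to 0.40, adjusted p = 0.913). In place of 12 members, 4 rose without library 16, 4 without library 17 and 4 without libraries 20 and 16 together, where 0 fell. Reads that align to several places were not counted for genes, so values of near-identical Cyp2a, Cyp2b, Cyp2c and Cyp3a copies are uncertain.

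**Figure D2:**
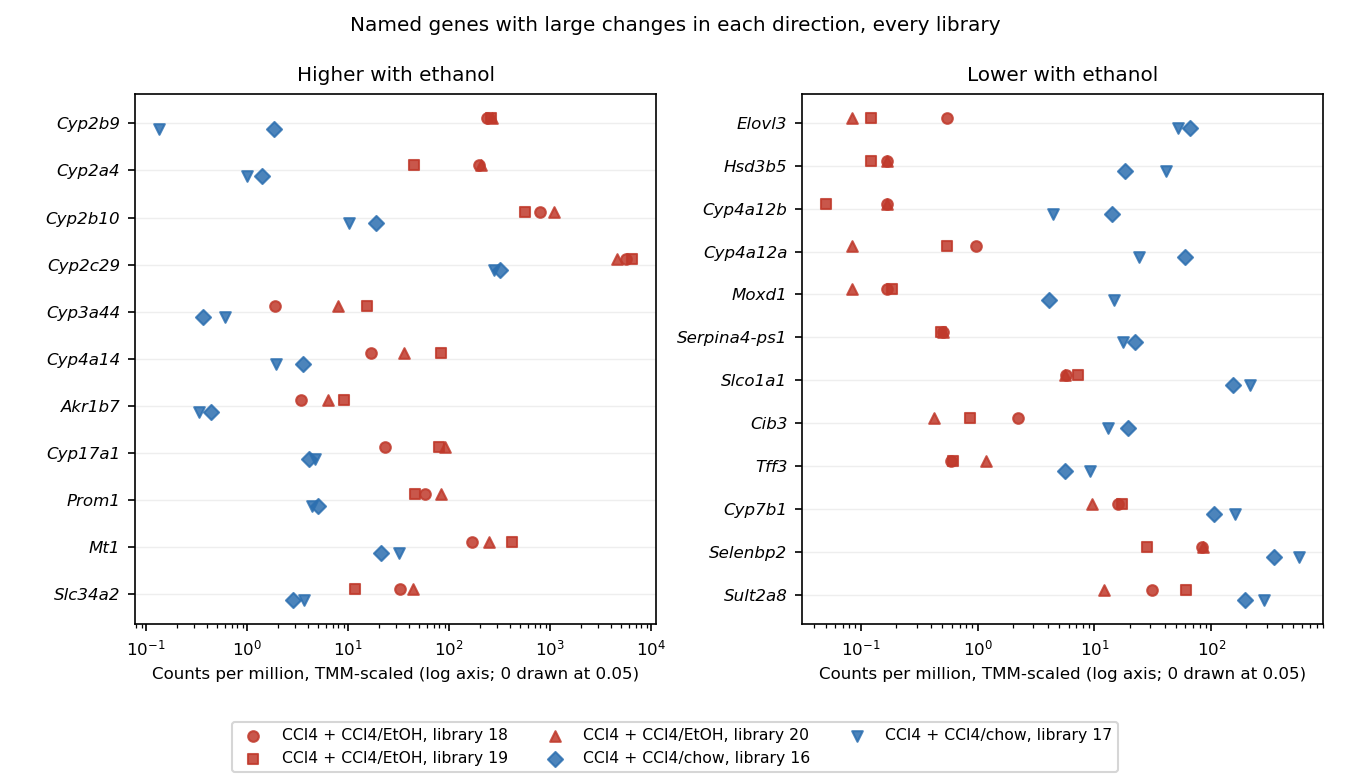
Level of named genes with large increases (left) and decreases (right) in each library, in TMM-scaled CPM on a log axis, with ethanol libraries in red and chow libraries in blue. Only genes without overlap of the groups were chosen, so the 3 ethanol libraries lie to one side of the 2 chow libraries by that choice. Cyp2b9 is at 234 to 265 CPM with ethanol and under 2 CPM with chow.

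Cyp2b10, Cyp2b13, Cyp2b9 and Cyp2a4 lie in a row of called genes on chromosome 7, between 25897620 and 26315088 on build mm10, and all rose. The promoters of Cyp2b9 and Cyp2b10 are shown because these were the P450 genes with the largest changes among those called without each library. Each line gives the 250 bases before the RefSeq start (GRCm38.p6, the assembly behind mm10), at chr7:26173159-26173408 for Cyp2b9 and chr7:25897408-25897657 for Cyp2b10, both on the plus strand. Capitals mark AGGTCA, the core motif bound by many nuclear receptors.
Cyp2b9: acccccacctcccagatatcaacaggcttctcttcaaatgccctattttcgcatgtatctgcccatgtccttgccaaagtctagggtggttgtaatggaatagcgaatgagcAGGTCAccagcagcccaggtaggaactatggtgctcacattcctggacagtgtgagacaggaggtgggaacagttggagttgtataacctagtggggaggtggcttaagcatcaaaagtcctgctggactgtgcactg
Cyp2b10: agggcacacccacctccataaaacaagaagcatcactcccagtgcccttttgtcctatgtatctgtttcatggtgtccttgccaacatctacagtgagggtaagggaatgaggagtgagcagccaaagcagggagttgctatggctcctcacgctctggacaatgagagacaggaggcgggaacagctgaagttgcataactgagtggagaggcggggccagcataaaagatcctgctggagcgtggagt
The motif stands at positions -138 to -133 of Cyp2b9, counted back from the start, and these letters are not in the window of Cyp2b10. Searched on both strands, AGGTCA was in 11.7% of the 14173 windows of all genes tested, 19.1% of the 68 windows of genes that rose and 16.3% of the 104 windows of genes that fell. RefSeq windows were found for 11210 of the 14778 genes. A match describes the letters only.

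Of 34 tested members of the list of male-biased genes, which are higher in male than in female liver, 18 fell. The median log2 change was -2.19, with 31 negative. Summed over the list they gave 12000, 11600 and 11200 CPM in ethanol livers, against 23300 and 30500 CPM in chow livers. Hsd3b5, a male-specific liver enzyme that inactivates steroids, had 0.169, 0.123 and 0.168 CPM in ethanol livers, against 18.2 and 40.8 CPM in chow livers. It was close to 0 in all ethanol libraries (log2 change -7.51 ± 0.69, 95% interval -9.03 to -5.99, adjusted p = 0.000347). Cyp7b1, an oxysterol hydroxylase of the alternative bile acid pathway, had 16.03, 17.4 and 9.51 CPM in ethanol livers, against 106 and 159 CPM in chow livers. It was 9.19-fold lower with ethanol (adjusted p = 0.00025). Slco1a1, an uptake transporter for organic anions, had 5.65, 7.29 and 5.56 CPM in ethanol livers, against 153 and 214 CPM in chow livers. Both groups were tight compared with the gap between them (log2 change -4.89 ± 0.43, adjusted p = 0.000261).

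Mup7, a major urinary protein that carries pheromones, had 15.2, 9.93 and 4.04 CPM in ethanol livers, against 300 and 632 CPM in chow livers (log2 change -5.56 ± 0.69, adjusted p = 0.00268). Cyp4a12a, a fatty acid hydroxylase of male mice, had 0.97, 0.552 and 0.0842 CPM in ethanol livers, against 59.98 and 24.2 CPM in chow livers (log2 change -6.07 ± 0.70, adjusted p = 0.00152). Moxd1, a monooxygenase-like protein, had 0.169, 0.184 and 0.0842 CPM in ethanol livers, against 4.1 and 14.6 CPM in chow livers (log2 change -5.86 ± 0.79, adjusted p = 0.00447). In these genes the chow libraries differed more than 2-fold from each other, yet both were well above all ethanol libraries. Elovl3, which lengthens very long-chain fatty acids, had the most negative log2 change of the genes named, with 0.548, 0.123 and 0.0842 CPM in ethanol livers, against 65.1 and 52.3 CPM in chow livers. That change was -7.57 ± 1.33 (adjusted p = 0.021), and the call ended without each of the 5 libraries in turn, at adjusted p of 0.0658 to 0.101. Selenbp2, a selenium-binding protein, had 82.8, 28.2 and 84.8 CPM in ethanol livers, against 343 and 566 CPM in chow livers (adjusted p = 0.02). That call ended without libraries 20, 16 and 17, at adjusted p of 0.051 to 0.131. Nudt7, a peroxisomal coenzyme A hydrolase, fell 3.59-fold (adjusted p = 0.00299). Hsd3b5, Cyp7b1, Slco1a1, Mup7, Cyp4a12a, Moxd1 and Nudt7 were called without each of the 5 libraries in turn, but without libraries 20 and 16 together the adjusted p was 0.0565 for Cyp4a12a and 0.0733 for Nudt7. Cyp4a12b, Cyp2u1, C6, Mup1, Mup20, Mup21, Serpina1e, Keg1 and Ugt2b38 were the other members that fell. The number of members that fell was 10 without library 20, 10 without library 16, 9 without library 17 and 5 without libraries 20 and 16 together. Reads shared by near-identical Mup and Cyp4a12 copies were not counted, so these values are uncertain.

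Promoters of male-biased genes that fell are shown because STAT5B and the factors HNF6 and CUX2 are known regulators of sex-biased liver genes. The choice was made after values and matches were seen. Slco1a1 is shown as a leading gene, and Keg1, which encodes a glycine acyltransferase-like protein, and Moxd1 as the genes whose windows hold a STAT5 match. Each line gives the 250 bases before the RefSeq start in GRCm38.p6, at chr6:141946963-141947212 (minus strand) for Slco1a1, chr19:12695540-12695789 (plus strand) for Keg1 and chr10:24223267-24223516 (plus strand) for Moxd1. Capitals mark AGGTCA or its reverse complement TGACCT in Slco1a1, the STAT5 palindrome TTCNNNGAA in Keg1 and Moxd1, and the HNF6 and CUX2 core ATCGAT in Moxd1.
Slco1a1: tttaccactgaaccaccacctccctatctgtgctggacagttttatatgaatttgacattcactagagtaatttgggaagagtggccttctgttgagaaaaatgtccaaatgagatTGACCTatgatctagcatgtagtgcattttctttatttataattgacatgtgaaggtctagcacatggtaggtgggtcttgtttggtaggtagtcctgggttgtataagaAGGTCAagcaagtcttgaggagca
Keg1: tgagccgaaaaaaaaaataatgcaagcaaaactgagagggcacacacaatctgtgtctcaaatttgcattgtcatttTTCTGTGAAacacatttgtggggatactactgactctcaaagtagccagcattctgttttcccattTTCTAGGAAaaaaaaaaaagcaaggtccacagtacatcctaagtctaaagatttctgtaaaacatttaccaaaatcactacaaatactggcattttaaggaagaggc
Moxd1: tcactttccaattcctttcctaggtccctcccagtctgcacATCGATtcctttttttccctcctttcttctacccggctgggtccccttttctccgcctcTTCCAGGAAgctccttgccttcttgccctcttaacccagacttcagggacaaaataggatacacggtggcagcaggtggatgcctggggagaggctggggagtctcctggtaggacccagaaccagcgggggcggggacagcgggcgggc
The palindrome stands at -173 to -165 and at -107 to -99 in Keg1, and at -150 to -142 in Moxd1. The core ATCGAT stands at -209 to -204 in Moxd1, and AGGTCA matches of Slco1a1 stand at -134 to -129 and at -24 to -19. Read on both strands, the palindrome was in 2 of the 12 windows of male-biased genes that fell (16.7%), 3.85% of the windows of all genes that fell, 5.88% of those of genes that rose and 6.21% of all windows. ATCGAT was in 2 of the 12 windows and in 0.628% of all windows. AGGTCA was in 3 of the 12 (25.0%) and in 11.7% of all windows. The 12 windows cover 11 of the 18 male-biased genes that fell. With 12 windows these shares are descriptions. Keg1 itself had 14.9, 34.03 and 22.3 CPM in ethanol livers, against 112 and 106 CPM in chow livers (adjusted p = 0.00674), and its adjusted p was 0.0526 without library 16.

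Of the female-biased genes, 7 of 31 tested members rose by edgeR, while DESeq2 called 10 higher and limma-voom 2. The median log2 change was 3.06, and 28 were positive. The list summed to 856, 967 and 998 CPM in ethanol livers, against 197 and 245 CPM in chow livers. Cyp2b9, Cyp2a4, Cyp2b13 and Cyp3a44 stand on the P450 list as well, and the other members that rose were Prom1, Cyp17a1 and Cyp4a14. Prom1, a membrane protein of progenitor and bile duct cells as well as of female liver, had 57.2, 45.7 and 83.6 CPM in ethanol livers, against 4.97 and 4.38 CPM in chow livers. It was 13.3-fold higher (adjusted p = 0.0134), and the adjusted p was 0.133 without library 16 and 0.13 without library 17. Cyp17a1, an enzyme of steroid hormone synthesis, had 23.2, 78.5 and 90.2 CPM in ethanol livers, against 4.1 and 4.65 CPM in chow livers. Library 18 was the low ethanol library (log2 change 3.86 ± 0.70, adjusted p = 0.0237), and the call ended without libraries 19, 20, 16 and 17, at adjusted p of 0.0542 to 0.227.

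Ethanol library 19 stood apart within the female-biased list. It was the highest of the 3 ethanol libraries for 24 of the 31 members, and more than 2-fold above both others for 18 of them. Over all genes tested it was the highest for 5370 of 14736 with a count in these livers. It was more than 2-fold above both others for 0.869%. Cux2 and Sult2a1, named after their values were seen, show this. Cux2, a repressor found in female liver, had 0.295, 5.58 and 0.0842 CPM in ethanol livers, against 0.585 and 0.398 CPM in chow livers. Sult2a1, a steroid sulfotransferase, had 0.0422, 2.51 and 0.337 CPM in ethanol livers, against 0.0731 and 0 CPM in chow livers. Library 19 was the high one in each, and neither was called, at adjusted p of 0.363 for Sult2a1 and 0.611 for Cux2. Cyp4a14, a PPARA target and fatty acid hydroxylase, was also highest in library 19, with 16.7, 83.6 and 35.95 CPM in ethanol livers, against 3.58 and 1.93 CPM in chow livers (adjusted p = 0.0437). Its call ended without libraries 19, 20, 16 and 17, at adjusted p of 0.0739 to 0.249. The number of female-biased members that rose was 4 without library 19, 3 without library 20, 1 without library 16, 1 without library 17 and 1 without libraries 20 and 16 together. In the male-biased list library 18 was the highest ethanol library, for 20 of 33 genes with a count in these livers, against 4561 of 14736 over all genes tested.

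Of the growth hormone pathway, 1 of 18 tested genes changed. Ghr, the growth hormone receptor, had 200.2, 252 and 223 CPM in ethanol livers, against 393 and 445 CPM in chow livers. It was 1.86-fold lower with ethanol, without overlap (adjusted p = 0.0143), and the call ended without libraries 20, 16 and 17, at adjusted p of 0.0526 to 0.13. No gene of this list was called without libraries 20 and 16 together. Other genes of the axis, named after their values were seen, missed the threshold. Igf1, the secreted growth factor it induces, changed by -0.07 (95% interval -0.54 to 0.41), Stat5b by -0.54 (-0.98 to -0.11) and the feedback inhibitor Socs2 by 0.98 (-0.37 to 2.32). Bcl6, a repressor that is higher in male liver, had 20.6, 9.93 and 12.5 CPM in ethanol livers, against 66.6 and 33.3 CPM in chow livers. The groups did not overlap, but the adjusted p was 0.143.

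Among genes of alcohol and aldehyde metabolism, 1 of 19 rose and 2 fell, with a median log2 change of -0.16. Acss3, a mitochondrial acyl-CoA synthetase, had 31.6, 25.8 and 28.3 CPM in ethanol livers, against 7.75 and 6.37 CPM in chow livers. It rose 4.05-fold (adjusted p = 0.00175) and was called without each of the 5 libraries in turn, but without libraries 20 and 16 together its adjusted p was 0.0619. Acss2, which makes acetyl-CoA from acetate outside mitochondria, had 89.1, 79.6 and 70.5 CPM in ethanol livers, against 360 and 187 CPM in chow livers. It fell 3.43-fold (adjusted p = 0.0103), with an adjusted p of 0.116 without library 16. Adh4, an alcohol and retinol dehydrogenase, had 135, 102 and 86.04 CPM in ethanol livers, against 267 and 296 CPM in chow livers. It fell 2.61-fold (adjusted p = 0.00953), with an adjusted p of 0.0526 without library 16 and 0.0888 without library 17. Cyp2e1, the ethanol-oxidising P450, had 425, 731 and 194 CPM in ethanol livers, against 1235 and 1235 CPM in chow livers. All ethanol libraries were lower, but they spread widely and the change was not called (log2 -1.46, 95% interval -2.38 to -0.53, adjusted p = 0.16). Without library 19 the adjusted p of Cyp2e1 was 0.0442. Adh1, the main alcohol dehydrogenase, changed by 0.48 (0.10 to 0.86, adjusted p = 0.275), and Aldh2, which clears acetaldehyde, by 0.08 (-0.34 to 0.49, adjusted p = 0.925). Without libraries 20 and 16 together, 0 genes of this list rose and 0 fell.

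Of 21 tested genes of bile acid synthesis and its regulation, 1 rose and 2 fell, with a median log2 change of -0.09, and Cyp7b1, given above, was 1 of those that fell. Cyp39a1, which hydroxylates 24-hydroxycholesterol, had 66.4, 69.03 and 82.5 CPM in ethanol livers, against 20.9 and 23.1 CPM in chow livers. It rose 3.3-fold (adjusted p = 0.00118) and was called without each of the 5 libraries in turn, but without libraries 20 and 16 together its adjusted p was 0.0698 and 0 members rose, while 1 fell. Cyp27a1, the mitochondrial sterol 27-hydroxylase, fell 1.83-fold (adjusted p = 0.0478), and the call ended without libraries 18, 20, 16 and 17, at adjusted p of 0.1 to 0.318. Cyp7a1, the rate-limiting enzyme of the classic pathway, had 271, 140 and 39.6 CPM in ethanol livers, against 312 and 341 CPM in chow livers. Its change of -1.12 had a 95% interval of -2.97 to 0.73 (adjusted p = 0.678). Abcb11, the bile salt export pump, changed by -0.30 (-0.63 to 0.02, adjusted p = 0.475).

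Of 21 tested transporters of bile acids, sterols and organic anions, 4 fell, with a median log2 change of -0.02, and Slco1a1 had the largest fall. Abcg5 and Abcg8, partners in the exporter that moves cholesterol into bile, fell together. Abcg8 had 11.3, 22.1 and 20.96 CPM in ethanol livers, against 46.1 and 49.1 CPM in chow livers (log2 change -1.40 ± 0.22, adjusted p = 0.0131). Abcg5 had 18.5, 28.7 and 30.1 CPM in ethanol livers, against 44.2 and 48.3 CPM in chow livers (log2 change -0.85 ± 0.18, adjusted p = 0.0437). Library 18 was lowest for both. Abcg2, an exporter of urate and drugs, fell 1.76-fold (adjusted p = 0.0364). The call of Abcg8 ended without library 16 (adjusted p = 0.0693) and library 17 (0.0899), and those of Abcg5 and Abcg2 ended without libraries 19, 20, 16 and 17, at adjusted p of 0.0567 to 0.238. The number of transporters that fell was 2 without library 19, 20 or 16, 1 without library 17 and 1 without libraries 20 and 16 together.

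Genes of fatty acid oxidation and other PPARA targets leaned upwards, and 5 of 40 rose, Cyp4a14 among them. The median log2 change was 0.36 and 32 were positive. Acot2 and Acot4, thioesterases that release fatty acids from coenzyme A, were 3.49-fold and 2.93-fold higher with ethanol (adjusted p = 0.0237 and 0.0478). Vnn1, a pantetheinase, was 3.29-fold higher (adjusted p = 0.0478), and Eci2, an enoyl-CoA isomerase, 1.69-fold higher (adjusted p = 0.0388). Eci2 had 112, 119.7 and 112 CPM in ethanol livers, against 61.7 and 73.5 CPM in chow livers, so the small change came with tight groups. Cpt1a, the carnitine gate of mitochondrial oxidation, changed by -0.04 (95% interval -0.62 to 0.55, adjusted p = 0.978). The number of members that rose was 1 without library 18, 3 without library 19 and 0 without library 20, 16 or 17, and 0 without libraries 20 and 16 together. On all libraries DESeq2 called 10 and limma-voom 2, and 22 members had an unadjusted p under 0.05 by edgeR. The calls of Acot2 and Vnn1 ended without libraries 18, 20, 16 and 17 and those of Eci2 and Acot4 without each of the 5, at adjusted p of 0.0611 to 0.332.

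Of 42 tested genes of fatty acid synthesis and lipid droplets, 3 rose and Elovl3 fell, and the median log2 change was 0.01. Apoa4, an apolipoprotein of triglyceride-rich particles, had 692, 1167 and 2051 CPM in ethanol livers, against 238 and 247 CPM in chow livers. It was 5.37-fold higher (adjusted p = 0.0139), with library 20 the highest, and the adjusted p was 0.153 without library 16 and 0.116 without library 17. Vldlr, the receptor for very low density lipoprotein, had 4.77, 8.52 and 9.6 CPM in ethanol livers, against 1.02 and 1.33 CPM in chow livers (6.38-fold, adjusted p = 0.0111). Its adjusted p was 0.136 without library 16 and 0.0812 without library 17. Cd36, a fatty acid uptake receptor, was 2.18-fold higher (adjusted p = 0.0321), a call that ended without libraries 19, 20 and 16, at adjusted p of 0.0664 to 0.2. Fasn, the fatty acid synthase, changed by -0.04 with a wide 95% interval of -1.24 to 1.17. Scd1, a fatty acid desaturase, had 4219, 8597 and 2074 CPM in ethanol livers, against 12500 and 6616 CPM in chow livers, and its groups overlapped (adjusted p = 0.516). Plin2, a lipid droplet coat protein, changed by 0.37 (-0.35 to 1.08, adjusted p = 0.737). With libraries 20 and 16 left out together, 0 members rose and 0 fell.

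In the cholesterol synthesis list 24 of 28 genes had a negative change and the median was -0.41, but 1 passed the test. Nsdhl, a sterol dehydrogenase, had 24.1, 23.2 and 25.2 CPM in ethanol livers, against 83.2 and 47.5 CPM in chow livers. It fell 2.71-fold (adjusted p = 0.0143), with an adjusted p of 0.051 without library 20 and 0.146 without library 16. Of 34 genes of glycolysis, gluconeogenesis and glycogen, 3 rose and 1 fell, with a median of 0.21. Fbp1, a gluconeogenic phosphatase, had 1101, 1354 and 1283 CPM in ethanol livers, against 714 and 682 CPM in chow livers (1.79-fold, adjusted p = 0.0171). Pfkl, the liver phosphofructokinase, was 1.71-fold higher (adjusted p = 0.0415) and Gpi1, glucose phosphate isomerase, 1.86-fold higher (adjusted p = 0.0433). Ppp1r3c, which brings a phosphatase to glycogen, had 27, 40.03 and 42.6 CPM in ethanol livers, against 121 and 139.6 CPM in chow livers (3.57-fold lower, adjusted p = 0.0365). The call of Fbp1 ended without libraries 20, 16 and 17, those of Pfkl and Gpi1 also without library 19, and that of Ppp1r3c without each of the 5, at adjusted p of 0.0526 to 0.267. In both the cholesterol and the glycolysis list 0 members were called without libraries 20 and 16 together.

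In other hepatocyte lists few members were called. Of 25 phase II conjugation genes 2 rose: Sult1a1, a phenol sulfotransferase, was 3.14-fold higher (adjusted p = 0.0166) and Ugt1a9, a glucuronosyltransferase, 3.43-fold higher (adjusted p = 0.0438). Of 32 genes of glutathione metabolism and NRF2 targets 1 rose, Akr1b7, an aldose reductase-like enzyme, with 3.38, 9.07 and 6.31 CPM in ethanol livers, against 0.439 and 0.332 CPM in chow livers (adjusted p = 0.0134). Nqo1, a classical NRF2 target named after its value was seen, changed by -0.12 (-0.86 to 0.62, adjusted p = 0.935). The adjusted p of Akr1b7 was 0.126 without library 16 and 0.13 without library 17, and that of Sult1a1 was 0.186 and 0.0746 without the same libraries. The call of Ugt1a9 ended without libraries 18, 19, 16 and 17, at adjusted p of 0.0986 to 0.303. Tef, a PAR bZIP factor under clock control, rose 2.39-fold (adjusted p = 0.0207). Its adjusted p was 0.0674 without library 20, 0.221 without library 16 and 0.0558 without library 17. Of 20 pericentral genes 3 fell, and besides Cyp1a2 and Cyp27a1 they included Rhbg, an ammonium transporter, which fell 2.27-fold (adjusted p = 0.0302). The call of Rhbg ended without libraries 19, 20, 16 and 17, at adjusted p of 0.0718 to 0.186. In the phase II, glutathione and pericentral lists 15 of 25, 9 of 32 and 10 of 20 genes had an unadjusted p under 0.05 by edgeR. Over all genes tested it was 1748 of 14778. Of the phase II changes 11 were positive and 14 negative. The pericentral list had a median of -0.30. It summed to 2410, 2580 and 1620 CPM in ethanol livers, against 3980 and 4320 CPM in chow livers. Of these 3 lists 0 members were called without libraries 20 and 16 together, and neither was Tef.

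Secreted proteins of complement and coagulation fell in 4 of 37 cases, with a median log2 change of -0.10 over the list. F11, coagulation factor XI, had 37.1, 35.9 and 42.01 CPM in ethanol livers, against 84.5 and 101 CPM in chow livers. It fell 2.42-fold with tight groups (adjusted p = 0.00178) and was called without each of the 5 libraries in turn. C6, C8b and C9, components of the membrane attack complex, fell 2.92-fold (adjusted p = 0.019), 1.91-fold (adjusted p = 0.0412) and 1.8-fold (adjusted p = 0.0485). Without library 20, 16 or 17 they were at adjusted p of 0.0567 to 0.295, and C8b was also lost without library 18 (0.115) and C9 without library 19 (0.116). The number of members that fell was 1 without library 20, 16 or 17, and 1 without libraries 20 and 16 together. C6 stands on the male-biased list as well. Acute-phase proteins had mostly positive changes, with 28 of 32 positive and a median log2 change of 0.61, but 1 was called, Mt1. Mt1, a zinc-binding metallothionein, had 166, 421 and 249 CPM in ethanol livers, against 20.9 and 31.8 CPM in chow livers. It was 10.6-fold higher (adjusted p = 0.0326), and the call ended without libraries 19, 20, 16 and 17, at adjusted p of 0.0673 to 0.303, and 0 acute-phase members were called without libraries 20 and 16 together. Saa1, serum amyloid A, changed by -0.04 (95% interval -1.27 to 1.18), and Lcn2, lipocalin 2, by 1.46 (0.16 to 2.77, adjusted p = 0.346). Hamp, the iron hormone hepcidin, had 51.6, 69.4 and 4.21 CPM in ethanol livers, against 299 and 166 CPM in chow livers, which did not pass the test (adjusted p = 0.162).

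Interferon-stimulated genes and class II antigen presentation leaned downwards. Of 40 interferon-stimulated genes 38 had a negative change, with a median of -0.54, and 2 fell. Ifih1, a cytosolic sensor of double-stranded RNA, had 55.99, 51.7 and 53.04 CPM in ethanol livers, against 78.8 and 89.1 CPM in chow livers (1.57-fold lower, adjusted p = 0.017). Rsad2, the antiviral protein viperin, had 11.9, 8.77 and 12.6 CPM in ethanol livers, against 22.6 and 18.8 CPM in chow livers (1.86-fold lower, adjusted p = 0.0365). Both changes were small, without overlap of the groups. Of 20 genes of MHC and antigen presentation 2 fell, with a median of -0.10. H2-Aa, a chain of the class II molecule that shows peptides to helper T cells, had 48.2, 45 and 42.9 CPM in ethanol livers, against 97.3 and 98.98 CPM in chow livers (2.16-fold lower, adjusted p = 0.0205). H2-Eb1, another class II chain, had 33.1, 30.1 and 27.6 CPM in ethanol livers, against 63.5 and 65.7 CPM in chow livers (2.13-fold lower, adjusted p = 0.0463). The class I genes H2-K1 and H2-D1, named after their values were seen, changed by -0.08 (-0.41 to 0.24) and 0.21 (-0.14 to 0.56). The call of Ifih1 ended without library 20 (adjusted p = 0.0674) and library 17 (0.146). The calls of Rsad2 and H2-Eb1 ended without each of the 5 libraries in turn and that of H2-Aa without libraries 19, 20, 16 and 17, at adjusted p of 0.0546 to 0.299. Of both lists 0 members were called without libraries 20 and 16 together. In whole liver, fewer cells of a type and less RNA per cell cannot be told apart.

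Markers of immune cells are given beside these lists. The lymphocyte markers summed to 29.5, 18.9 and 17.9 CPM in ethanol livers, against 45.6 and 48 CPM in chow livers, and 20 of the 21 tested had a negative change (median -1.01). Of the 21, edgeR called 0, 7 had an unadjusted p under 0.05, and DESeq2 called 0. Their defining markers were low: the T cell marker Cd3e had 2, 5 and 1 counts in the ethanol libraries, against 10 and 3 counts in the chow libraries, and the B cell marker Cd79a had 21, 5 and 4 counts in the ethanol libraries, against 38 and 17 counts in the chow libraries. Neutrophil markers had a median log2 change of -1.05 over 15 genes, 14 of them negative, while their sum was 1270, 872 and 2140 CPM in ethanol livers, against 927 and 703 CPM in chow livers. The median and the sum therefore differ in direction. The defining marker S100a8 went with the median, at 32.2, 20.4 and 56.8 CPM in ethanol livers, against 62.8 and 83.9 CPM in chow livers, unscaled. Ly6g was also lower in every ethanol library, at no more than 15 counts a library. Lcn2, given above, went with the sum, at 1033, 789 and 1802 CPM in ethanol livers, against 548.4 and 328.6 CPM in chow livers. Its share of the sum was not tested, and the sum is not read as a measure of neutrophils. Csf3r, the receptor for granulocyte colony-stimulating factor, fell 1.9-fold (adjusted p = 0.0438), and the call ended without libraries 19, 20, 16 and 17, at adjusted p of 0.0928 to 0.284, and without libraries 20 and 16 together. The part of these cells in the lower class II and interferon-stimulated genes was not tested.

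All 16 genes of lipid-associated and scar macrophages had a positive change, with a median of 0.70, and they summed to 5270, 5500 and 5080 CPM in ethanol livers, against 3060 and 4290 CPM in chow livers. Of these, 1 was called: Cd63, a lysosomal tetraspanin, had 38.5, 35.7 and 45.04 CPM in ethanol livers, against 10.8 and 15.5 CPM in chow livers (3.02-fold, adjusted p = 0.0214). Gpnmb, a glycoprotein of such macrophages, had 273, 434 and 206 CPM in ethanol livers, against 58.4 and 158 CPM in chow livers (adjusted p = 0.213). Spp1, osteopontin, had 372, 553 and 583 CPM in ethanol livers, against 77.9 and 291 CPM in chow livers (adjusted p = 0.26). In both genes chow library 16 was far below chow library 17, and neither was called. Msr1, a scavenger receptor of macrophages, was 1.7-fold higher (adjusted p = 0.0478), and Timd4, a receptor of resident Kupffer cells, 2.47-fold lower (adjusted p = 0.0472). Each was the sole called member of its list and moved against the list's median. The list of monocytes and dendritic cells, which holds Msr1, had a median log2 change of -0.25 with 10 of 16 negative, and the Kupffer cell list, which holds Timd4, one of 0.19 with 12 of 16 positive. The Kupffer cell list summed to 2670, 2060 and 2240 CPM in ethanol livers, against 1970 and 2250 CPM in chow livers. Of its defining markers, Clec4f had 209, 129 and 193 CPM in ethanol livers, against 203 and 215 CPM in chow livers, and Vsig4 had 94.8, 76.2 and 91.1 CPM in ethanol livers, against 68.7 and 87.8 CPM in chow livers, all unscaled. For both markers and for the sum the groups overlapped. The calls of Cd63, Msr1 and Timd4 ended without libraries 18, 20 and 16, those of Msr1 and Timd4 also without library 19 and that of Cd63 without library 17, at adjusted p of 0.0501 to 0.455. Alas2, the heme synthesis enzyme of red cell precursors, had 49.4, 35.5 and 37.97 CPM in ethanol livers, against 100.4 and 102 CPM in chow livers (2.46-fold lower, adjusted p = 0.00607). Its adjusted p was 0.05004 without library 16 and 0.0607 without library 17. Cd63, Msr1, Timd4 and Alas2 were not called without libraries 20 and 16 together.

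For scar genes few changes passed the test. Of 38 fibrillar matrix and basement membrane genes edgeR called 0, while DESeq2 called 3 and limma-voom 2, and the median log2 change was -0.21. By edgeR 8 of the 38 had an unadjusted p under 0.05, against 1748 of 14778 over all genes tested. Col1a1, a chain of the main scar collagen, had 78.6, 24.1 and 65.6 CPM in ethanol livers, against 104 and 80.4 CPM in chow livers, a change of -0.72 (95% interval -1.78 to 0.35). Acta2, the smooth muscle actin of myofibroblasts, changed by -0.34 (-1.66 to 0.98) and Timp1, a protease inhibitor, by -1.18 (-3.01 to 0.66). These intervals leave room for changes of more than 2-fold. Among 33 matrix remodelling genes 1 fell, Loxl4, a collagen cross-linking enzyme, by 1.89-fold (adjusted p = 0.0437), a call that ended without each of the 5 libraries in turn, at adjusted p of 0.0658 to 0.362, and without libraries 20 and 16 together.

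Of 42 cell cycle genes 39 had a positive change with a median of 0.49, but edgeR called 0, 2 had an unadjusted p under 0.05 and DESeq2 called 0. The ethanol libraries did not go together here. The list summed to 1390, 451 and 1280 CPM in ethanol libraries 18, 19 and 20, against 740 and 882 CPM in chow libraries 16 and 17. Library 19 was the lowest ethanol library for all 42 genes, against 5907 of 14736 over all genes tested with a count in these livers. The inflammatory genes Tnf and Ccl2 changed by -0.68 (-2.03 to 0.66) and -0.22 (-1.03 to 0.59). The neutrophil chemokine gene Cxcl1 changed by -0.45 (-1.72 to 0.83) and the interleukin gene Il1b by -0.59 (-1.30 to 0.12), and none of the 4 was called. The lists of cytokines, cell death genes and p53 targets had 0 calls by edgeR and 0 by DESeq2, with 3, 3 and 2 genes at an unadjusted p under 0.05. By edgeR 0 genes were called among 36 of the urea cycle and amino acid catabolism, 33 of the respiratory chain, 21 of the methionine cycle, 21 of stellate cells and 20 of sinusoidal endothelium, with 7, 0, 6, 2 and 5 at an unadjusted p under 0.05. In the same lists DESeq2 called 2, 0, 3, 0 and 1. Over all genes tested, 1748 of 14778 had an unadjusted p under 0.05 by edgeR.

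**Figure D3:**
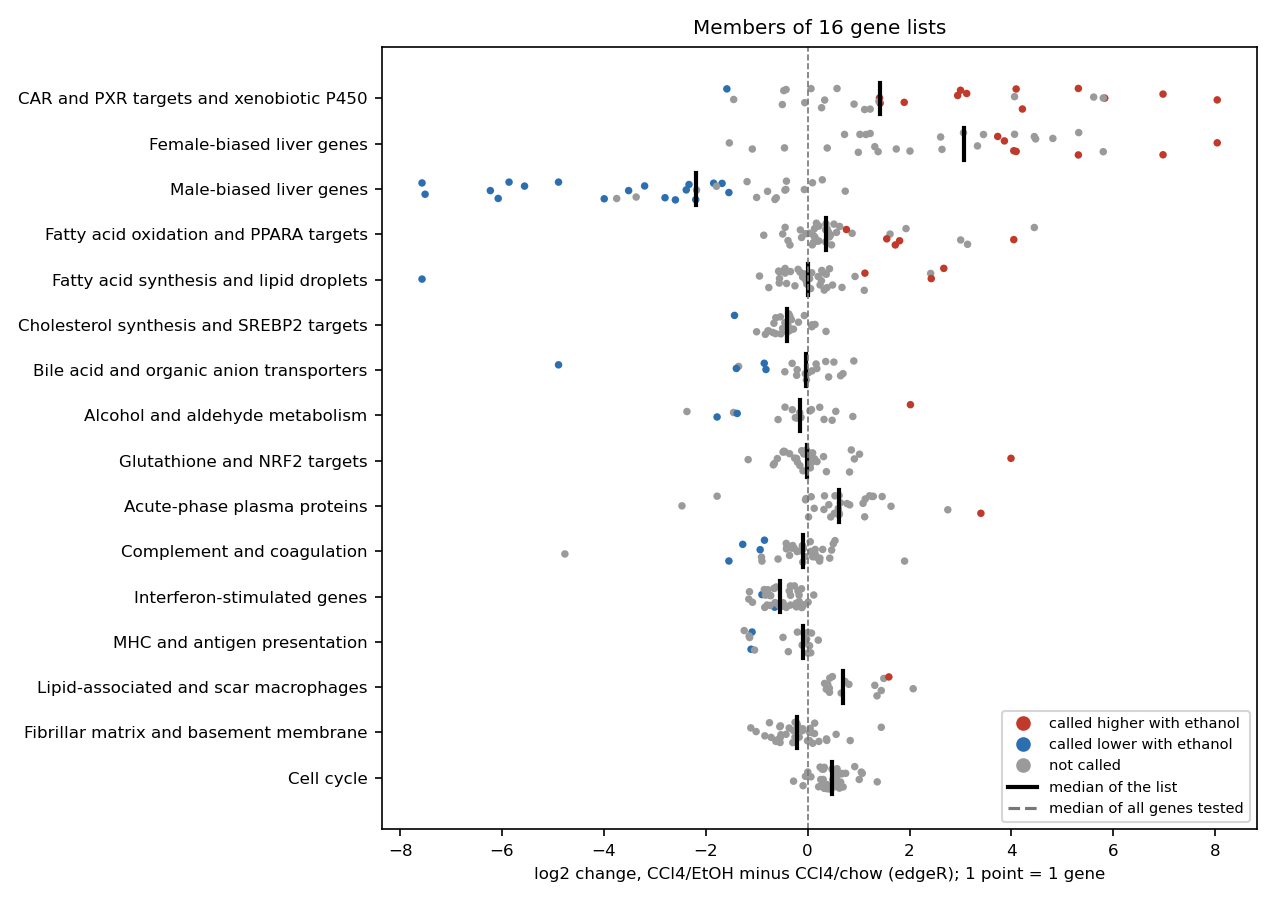
Log2 change, ethanol minus chow, of every tested member of 16 gene lists; each point is 1 gene, red if called higher, blue if called lower, grey if not called, with the median of the list as a black bar and the median of all genes as a dashed line. The P450 and female-biased lists lie to the right, at medians of 1.41 and 3.06, and the male-biased list to the left, at -2.19.

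Several large changes belonged to genes outside the metabolic lists. Slc34a2, a phosphate transporter, had 32.5, 11.7 and 43.4 CPM in ethanol livers, against 2.85 and 3.65 CPM in chow livers (adjusted p = 0.0138). Ly6d, a small membrane protein, had 163, 106 and 170.1 CPM in ethanol livers, against 21.5 and 24.5 CPM in chow livers (6.37-fold, adjusted p = 0.0384). Both rose, and library 19 was the lowest ethanol library for each. Tff3, a trefoil peptide, fell 9.76-fold, with 0.591, 0.613 and 1.18 CPM in ethanol livers, against 5.63 and 9.23 CPM in chow livers (adjusted p = 0.00101). Cib3, a calcium-binding protein, fell 12.7-fold, with 2.24, 0.858 and 0.421 CPM in ethanol livers, against 19.3 and 13.1 CPM in chow livers (adjusted p = 0.00382). Tff3 and Cib3 were called without each of the 5 libraries in turn, but without libraries 20 and 16 together the adjusted p of Cib3 was 0.0711. Sult2a8, a sulfotransferase, fell 6.86-fold (adjusted p = 0.0214), and the pseudogene Serpina4-ps1 had 0.506, 0.49 and 0.505 CPM in ethanol livers, against 22.3 and 17.6 CPM in chow livers (adjusted p = 0.00992). The call of Slc34a2 ended without library 16 (0.162) and library 17 (0.103), and that of Serpina4-ps1 without library 16 (0.0567). The calls of Ly6d and Sult2a8 ended without libraries 18, 16 and 17, and that of Ly6d also without library 20, at adjusted p of 0.074 to 0.299.

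Ethanol had also been given to mice without CCl4, and the 2 ethanol comparisons share no library. In the OO livers 538 genes were called (3.64%), with 181 higher (1.22%) and 357 lower (2.42%), but the chow side there is library 12 alone, and its variation is borrowed from other groups. Exocrine pancreas genes summed to 8.02, 8.12 and 13.7 CPM in the OO ethanol libraries, against 201 CPM in library 12, and the muscle list summed to 626 CPM in OO ethanol library 14 and to under 3 CPM in the other 3 OO libraries of day 20. The count was 1554 without library 13 and 253 without library 15, and that of higher genes was 849 without library 13, 101 without library 14 and 71 without library 15. With the OO chow library of day 23, numbered 5, in place of library 12, the count was 94. Of the 74 genes higher with ethanol in CCl4 livers, 70 had a positive change in OO livers and 32 were called higher there. Of the 113 lower genes, 99 had a negative change in OO livers and 38 were called lower there. The median log2 change of the higher genes was 1.64 in CCl4 livers and 1.34 in OO livers, and that of the lower genes was -1.59 in CCl4 livers and -0.81 in OO livers. These genes were chosen for their change in CCl4 livers, so the medians are a description. Cyp7b1 changed by -3.20 in CCl4 livers and -0.38 in OO livers, and Elovl3 by -7.57 in CCl4 livers and -1.91 in OO livers, but the difference was not called for either (adjusted p = 0.0709 and 0.417).

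The difference of the 2 ethanol effects was called for 2 genes (0.0135% of those tested), both more negative in CCl4 livers. Cbr3, a carbonyl reductase and NRF2 target, had 2.95, 3.004 and 3.03 CPM in ethanol livers, against 3.15 and 5.11 CPM in chow livers after CCl4. In OO livers Cbr3 had 31.8, 30.96 and 16.6 CPM with ethanol, against 0.869 CPM with chow. Its log2 change was -0.47 in CCl4 livers and 4.92 in OO livers, a difference of -5.38 (adjusted p = 0.0164). Abcc4, an exporter of bile acids and conjugates, had 14.9, 17.04 and 21.7 CPM in ethanol livers, against 14.3 and 10.6 CPM in chow livers after CCl4. In OO livers Abcc4 had 119.9, 116 and 84.5 CPM with ethanol, against 9.48 CPM with chow. Its log2 change was 0.51 in CCl4 livers and 3.49 in OO livers, a difference of -2.98 (adjusted p = 0.0235). Both genes were high in the OO ethanol livers and low in the other groups given here. Both calls ended without library 18 (adjusted p = 0.0594 for each), and that of Abcc4 ended without library 16 (0.12). The number of genes called was 0 without library 18, 6 without library 19, 5 without library 20, 1 without library 16, 10 without library 17 and 21 without library 13. Of all genes tested, 1215 had an unadjusted p under 0.05 for the difference, and DESeq2 called 153.

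**Figure D4:**
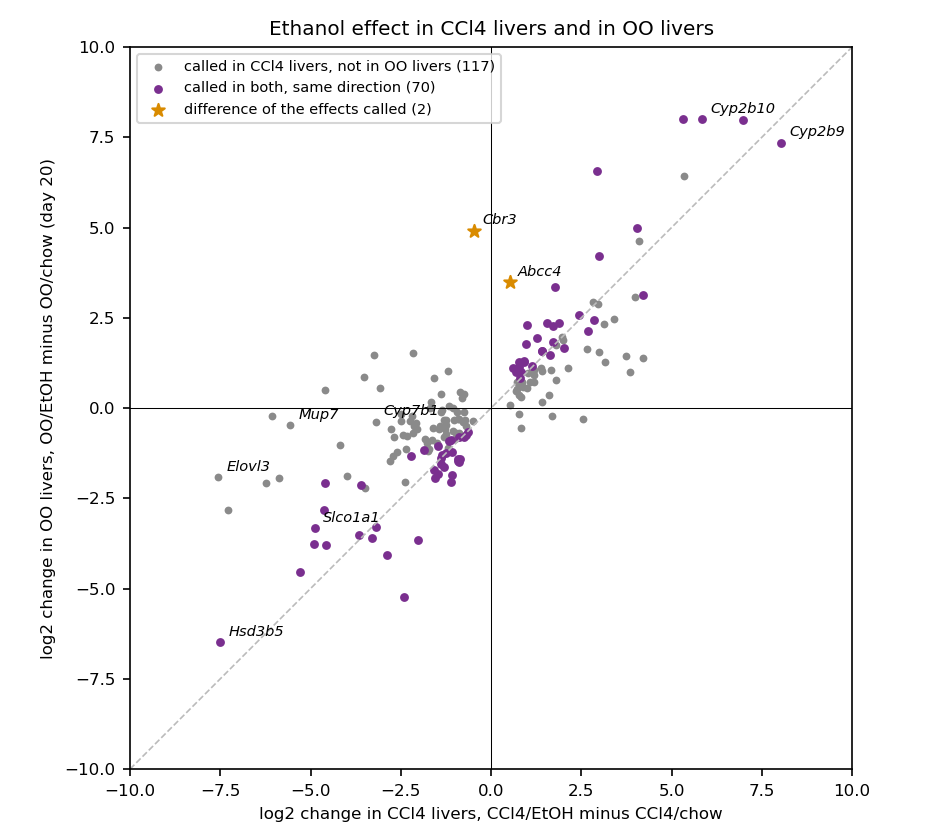
Log2 change with ethanol in CCl4 livers (x axis) and in OO livers at day 20 (y axis) for the 187 genes called in CCl4 livers and for Cbr3 and Abcc4; purple points were called in both comparisons, grey points in CCl4 livers and not in OO livers, stars mark Cbr3 and Abcc4, and the dashed line marks equal changes. Of the called genes, 70 were called in the same direction in OO livers, and Cbr3 and Abcc4 lie above the line at 4.92 and 3.49.

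Levels across the whole series are given here as a description. Cyp2b9 averaged 252 ± 15.96 CPM in CCl4 ethanol livers (SD, n = 3), against 0.981 ± 1.20 CPM in CCl4 chow livers (n = 2). In OO livers at day 20 it averaged 169 ± 57.1 CPM with ethanol (n = 3), against 1.03 CPM in the chow library. At day 0, with no ethanol given, the mean of Cyp2b9 was 0.0939 CPM in livers that had CCl4 (n = 2) and 0.126 CPM in OO livers (n = 2). Hsd3b5 averaged 0.153 CPM in CCl4 ethanol livers, against 29.5 CPM in CCl4 chow livers. In OO livers at day 20 Hsd3b5 averaged 1.63 CPM with ethanol, against 132 CPM with chow, and at day 0 its mean was 58.5 CPM in livers that had CCl4 and 159 CPM in OO livers. The male-biased list summed to 11200 to 12000 CPM in the CCl4 ethanol livers, below every other library of the series, of which the OO ethanol library of day 23 came next with 12900 CPM. The P450 list summed to 11800 to 16900 CPM in CCl4 ethanol livers, against 3820 and 4170 CPM in CCl4 chow livers. CCl4 livers at day 0 had 14700 and 13600 CPM of this list, but with its genes in other proportions. There Cyp3a11 averaged 10320 CPM, Cyp2c29 1002 CPM and Cyp2b10 12.3 CPM, TMM-scaled. In CCl4 ethanol livers Cyp3a11 averaged 4242 CPM, Cyp2c29 5557 CPM and Cyp2b10 823 CPM. OO ethanol livers at day 20 had 20600 to 24200 CPM of the P450 list, against 5670 CPM in the OO chow library.

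**Figure D5:**
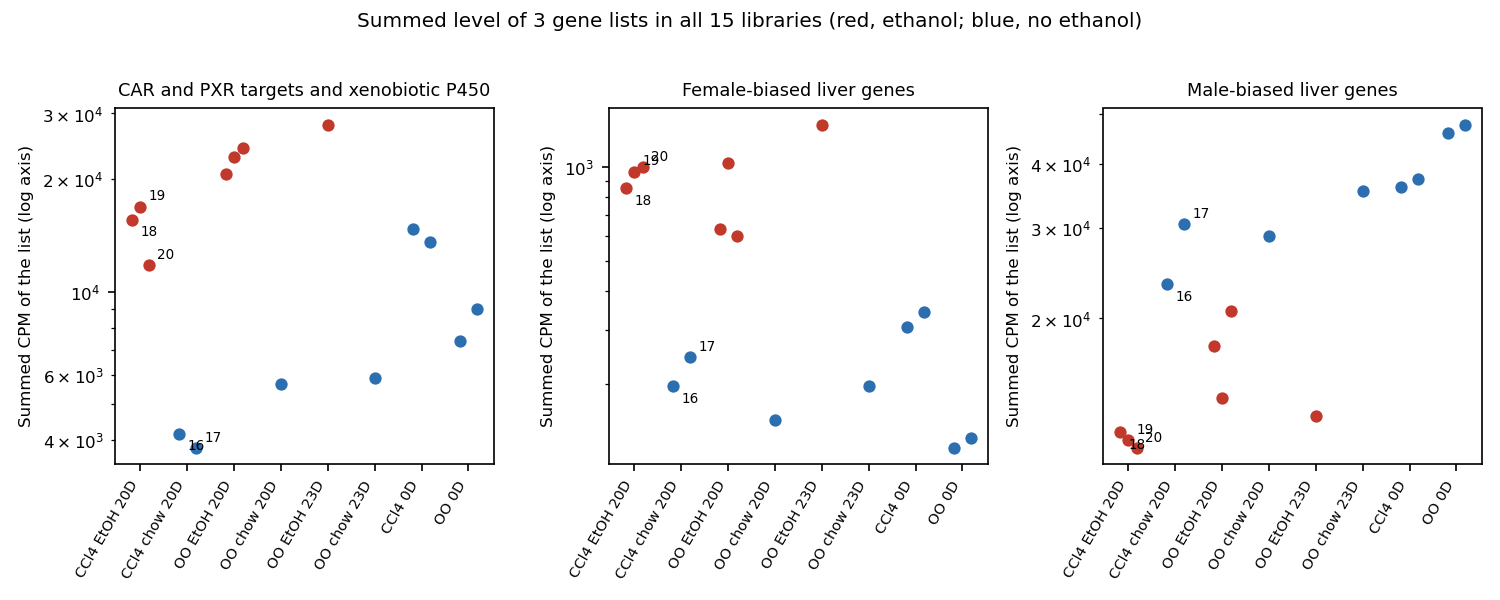
Summed CPM (log axis) of 3 gene lists in each of the 15 libraries, by group, with ethanol groups in red and the others in blue and the 5 compared libraries numbered. The P450 and female-biased sums are higher in each ethanol group than in its chow group of the same day, and the male-biased sums lower; among CCl4 livers at day 20 the female-biased sum is 856 to 998 CPM with ethanol and 197 to 245 CPM with chow.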

How the data were processed

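Libraries were made from RNA of snap-frozen liver with a TruSeq mRNA kit, per the labels' protocols. The deposited tables hold raw counts of reads per gene, 1 table a library. Per the submitters' processing notes, reads were aligned to mm10 with GSNAP and the authors used DESeq2 1.12.3; which program, annotation and strand setting gave the counts is not given in the sources used here. The 5 closing entries of each table, for reads given to no gene, were left out, including 18.1% to 21.1% of reads in the 5 compared libraries that aligned to more than 1 place. The names of the day 20 tables say 28D, and the labels were followed.

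Genes were filtered with filterByExpr, scaled with TMM and tested with the quasi-likelihood test of edgeR 4.0.16 (R 4.3.3), two-sided, on all 15 libraries in 8 groups with no covariate. P-values were adjusted with Benjamini-Hochberg over 14778 genes. Alternatives used DESeq2 1.42.0 and limma 3.58.1. The script was tested on simulated data.

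The text names up to 12 called genes per direction by size of change with at least 5 CPM in a group and no overlap (not Mup genes, antigen receptor gene segments or symbols of the Gm and Rik kind), up to 6 called members of each list, and genes of a hand-written list. The members of all lists and these genes were chosen with earlier results of these data known. Keg1, Bcl6, Cux2, Sult2a1, Nr1i3, Nr1i2, Stat5b, Socs2, Igf1, Nqo1, H2-K1, H2-D1, Cyp2b13 and the genes of the closing observations were named after their values were seen. A few genes that meet the rule are not reported here. Promoters came from the RefSeq tables for GRCm38.p6. All replicate pairs differed beyond counting noise, but not equally. The chi-square per degree of freedom of raw counts was 3.93 for libraries 3 and 4 (CCl4, day 0). It was 19.4 to 78.4 for the other pairs. The tight pair enters the pooled spread behind all p-values of the main fit, and its weight there was not tested.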

Additional observations from a re-analysis of the deposited data

Results flagged for a closer look

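The test of the difference between the ethanol effect in CCl4 livers and that in OO livers called 2 genes. Cbr3, a carbonyl reductase, had a difference of -5.38 on the log2 scale (adjusted p = 0.0164, edgeR), with changes of -0.47 in CCl4 livers and 4.92 in OO livers. Abcc4, an exporter of bile acids and conjugates, had a difference of -2.98 (adjusted p = 0.0235, edgeR), with changes of 0.51 in CCl4 livers and 3.49 in OO livers. All 3 OO ethanol libraries were above every CCl4 library of day 20 for both genes. The OO side rests on 1 chow library, and with the OO chow library of day 23 in its place the differences were -5.66 for Cbr3 and -3.19 for Abcc4 (adjusted p = 0.0101 and 0.0122, edgeR).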

How the results depend on the processing

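The 187 calls in CCl4 livers became 414 with DESeq2 (185 of them shared), 50 in a fit of the day 20 libraries only, 56 when a change beyond 1.5-fold was tested, 99 in a fit of the 5 compared libraries, 24 without libraries 16 and 20, and 49 to 141 without 1 library. In the same order, the 74 higher genes became 194, 15, 16, 36, 5 and 10 to 59, and the 113 lower genes 220, 35, 40, 63, 19 and 39 to 82. The count stayed between 167 and 255 with RLE scaling, no filter on low counts, a filter of 1 CPM, limma-voom and limma-voom with lane as a block (within-lane correlation -0.0818). The 2 calls for the difference between the ethanol effects became 49 with no filter, 153 with DESeq2, 35 with limma-voom, 55 with the lane block, 0 in the day 20 libraries only, 14 with the day 23 OO chow library, 20 with OO days merged and 0 to 21 without 1 library. Of these, 29, 84, 26, 44, 0, 3, 3 and 0 to 11 were more positive in CCl4 livers, against 0 as reported, and 20, 69, 9, 11, 0, 11, 17 and 0 to 10 were more negative. In the day 20 libraries only, the adjusted p was 0.144 for Cbr3 and 0.152 for Abcc4. The 538 calls in OO livers became 956 with DESeq2 (520 higher, 436 lower), 201 in the day 20 libraries only (59 and 142), 117 beyond 1.5-fold (32 and 85), 94 with the day 23 chow library (55 and 39), 1139 with days merged (634 and 505) and 253 to 1554 without 1 library (71 to 849 higher, 182 to 705 lower). Of 72 named called genes, 0 changed direction in any of the 15 alternatives, 16 stayed called without each library in turn, and 10 stayed called in all 15. Of 28 named genes that were not called, 1 passed in an alternative, Cyp2e1 without library 19. The cause of these shifts was not tested. With 3 and 2 libraries, the width of the intervals limits what can be said of genes that were not called. No paired analysis was possible because each library has its own number in the titles.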

Other observations

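Gene families outside the lists were looked up after the values were seen, so they are descriptions. Gstt3, a theta-class glutathione transferase, had 103, 108 and 75.8 CPM in ethanol livers, against 16.4 and 10.02 CPM in chow livers. It was 7.25-fold higher (adjusted p = 0.000261, edgeR), and Gstt2 was 1.97-fold higher (adjusted p = 0.0339), so 2 of the 3 tested theta-class genes rose. The call of Gstt3 held without each of the 5 libraries in turn and that of Gstt2 ended without each, at adjusted p of 0.0546 to 0.183. Of 15 carboxylesterase genes, which cleave esters of drugs and lipids, 3 fell and 13 had a negative change. Ces3a, a lipase of the endoplasmic reticulum, had 486, 303 and 209 CPM in ethanol livers, against 1424 and 1507 CPM in chow livers (4.41-fold lower, adjusted p = 0.00567). Ces3b fell 6.57-fold (adjusted p = 0.00662) and Ces1b 5.45-fold (adjusted p = 0.00271). Without library 17 the adjusted p was 0.0544 for Ces3a and 0.0505 for Ces3b, while Ces1b stayed called without each library. Of 18 tested Mup genes 7 fell, and Mup20, the pheromone darcin, had 533, 159.8 and 176 CPM in ethanol livers, against 1140 and 2366 CPM in chow livers (adjusted p = 0.0257). Hsd3b3, a steroid dehydrogenase of the family of Hsd3b5, fell 3.09-fold (adjusted p = 0.00764). The calls ended without libraries 19, 20 and 17 for Mup20 and without libraries 16 and 17 for Hsd3b3, at adjusted p of 0.0526 to 0.184.

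Of 36 collagen genes tested, 3 fell and 0 rose. Col5a3, a chain of type V collagen, had 16.9, 21.5 and 18.8 CPM in ethanol livers, against 59.5 and 40.5 CPM in chow livers (2.62-fold lower, adjusted p = 0.00152). Col25a1, a membrane collagen, had 0.464, 0.184 and 0.421 CPM in ethanol livers, against 3.07 and 3.65 CPM in chow livers (9.12-fold lower, adjusted p = 0.00101), and Col24a1 had 0.844, 0.858 and 0.673 CPM in ethanol livers, against 2.63 and 4.58 CPM in chow livers (adjusted p = 0.0384). In OO livers Col5a3 changed by -1.37 and Col25a1 by -3.30, and both were called there. Without each of the 5 libraries in turn, Col5a3 and Col25a1 stayed called and Col24a1 did not, at adjusted p of 0.0779 to 0.226.

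Some called genes were neighbours in the mm10 annotation. Pdilt, Acsm5 and Acsm2 on chromosome 7, between 119486587 and 119600690, all fell. Cyp2c37, Cyp2c54 and Cyp2c50 on chromosome 19, between 39992424 and 40113950, all rose. Neighbours did not always move together: on chromosome 4, between 115299046 and 115496142, Cyp4a12a and Cyp4a12b fell while Cyp4a14 rose. The Cyp2c calls ended without libraries 16 and 17, those of Pdilt and Acsm2 without 4 of the 5 libraries (all but 18 for Pdilt and all but 19 for Acsm2) and that of Acsm5 without each, at adjusted p of 0.0522 to 0.253. Near-identical copies in such rows share reads that were not counted.

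Libraries of the ethanol group differed among themselves. Library 19 was the highest ethanol library for 34 of 36 genes of the urea cycle and amino acid catabolism, and library 20 for 13 of 15 neutrophil genes. Of 14736 tested genes with a count in these livers, library 19 was the highest for 5370 and library 20 for 4805. Cholangiocyte and ductular genes summed to 688, 760 and 913 CPM in ethanol livers, against 313 and 552 CPM in chow livers, unscaled, and 1 of 17 tested was called, Prom1. The defining marker Krt19 had 3.29, 3.2 and 2.68 CPM in ethanol livers, against 1.89 and 5.58 CPM in chow livers, unscaled. Krt7 had 1.78, 1.54 and 2.06 CPM in ethanol livers, against 1.26 and 4.39 CPM in chow livers. For both markers the groups overlapped. The fat cell list summed to 1410, 1510 and 963 CPM in ethanol livers, against 2440 and 2240 CPM in chow livers, unscaled. Of its 5 tested genes edgeR called 0, 3 had an unadjusted p under 0.05 and DESeq2 called 1, Car3. The defining fat cell markers Adipoq and Plin1 had 0 counts in libraries 18, 19, 20 and 16, and 12 and 7 counts in library 17. The sum therefore came from other genes of the list and is not a measure of fat cells.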
